A study of Rattus norvegicus with 9 samples.

Results

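The genes described here encode the thin filament, the Z-disc, the M-band and the costamere of the heart muscle cell, together with proteins known for answering stretch. They are 37 named genes, with the myosin chains left out, and the values of all transcripts that carry 1 gene name were summed. A gene was kept when its mean over the 9 libraries was at least 1 CPM (counts scaled to library size), which left 33 of the 37. All 33 were among the 15467 genes tested. The libraries are RNA-seq of the left ventricle of Sprague-Dawley rats, 8 weeks old at the start and studied after 28 days. The saline group, the group given angiotensin II (Ang II, a hormone that constricts vessels) and the group given Ang II with sodium butyrate (NaBu, a short-chain fatty acid salt that inhibits histone deacetylases) hold 3 libraries each. The labels give no dose and no sex. Nothing in them says that the 3 libraries of a group are 3 animals, so each p-value here rests on a spread between libraries that may be technical in part.

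The thin filament is a polymer of actin on which tropomyosin and troponin block or open the sites that myosin heads bind, as calcium falls and rises. Its barbed ends are anchored and capped at the Z-disc, where alpha-actinin crosslinks filaments of neighbouring sarcomeres, and its pointed ends are capped near the middle of the sarcomere. The Z-disc and the costamere, which ties it to the cell membrane, carry proteins that move between the sarcomere and the nucleus and whose genes are known to respond to mechanical load.

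Total estimated counts per library ran from 29284780 to 49865446. Levels are in CPM after scaling with trimmed-mean (TMM) factors. They are not divided by transcript length, so they are compared between libraries and not between genes. Each group was deposited in a table of its own, so unequal processing of the tables and an effect of treatment cannot be told apart. Saline replicate 2 stood apart. All 10 listed atrial cardiomyocyte markers were highest in it and 9 of 10 ventricular cardiomyocyte markers were lowest. The atrial markers summed to 6039 CPM there, to 111 to 201 CPM with Ang II and to 149 to 260 CPM with NaBu. In saline replicate 2 the median log2 ratio to the mean of the 9 libraries was 3.93 for atrial and -0.70 for ventricular markers. The atrial median was 0.67 in saline replicate 3 and -0.40 in saline replicate 1. It was below 0 in every Ang II and NaBu library. Of the 33 members, 22 were also lowest in saline replicate 2 (66.7%), against 18.8% of all genes tested. The summed level of the members was 25738 CPM there and from 34305 to 47274 CPM in the other 8 libraries. In bulk tissue, fewer cells of a type and less RNA per cell cannot be told apart.

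With Ang II alone, 10 of 33 members averaged higher than with saline and none was called. With NaBu added, 27 of 33 averaged higher than with Ang II alone, where 47.3% of all genes tested did. The members' median log2 difference was 0.37, against -0.02 over all genes. Smpx and Fhl1, both of the stretch-response group, rose by the test across all genes. Smpx and Smyd1, a methyltransferase needed for sarcomere assembly, rose against saline. The ventricular cardiomyocyte markers averaged higher with NaBu by a like amount. Their values are given below, and their part in the members' difference was not tested.

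For Ang II against saline, the question is which of these genes differ after the hormone alone. edgeR called 0 of 15467 genes at an adjusted p under 0.05 (0% rose and 0% fell), and so 0 members. At an unadjusted p under 0.05, 1 member was higher and 1 was lower, where 2.44% and 3.49% of all genes were. DESeq2 called 23 genes higher (0.133%) and 37 lower (0.214%) among 17275, with 0 members among them. edgeR called 0 members without saline replicate 2 and with these 2 groups alone in the fit, where 0.00636% and 0.0066% of all genes were called as lower. The members' median log2 difference was -0.05, against -0.00 over all genes, and 49% of all genes were above 0 where 30.3% of the members were. The groups did not overlap for 2 members, Xirp1 and Fhl1. For all genes, groups without overlap made up 4.94% on the higher side and 4.97% on the lower side. Without saline replicate 2 only 4 members averaged higher (median -0.13). Without saline replicate 3, 25 did (median 0.11), so the sign of this median turned with the saline libraries used.

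For Ang II + NaBu against Ang II, the question is what butyrate adds to the hormone. edgeR called 2 members, Smpx and Fhl1, both higher, where it called 0.647% of all genes as higher and 0.957% as lower. The 2 groups did not overlap for 23 of 33 members on the higher side (69.7%), against 18.1% of all genes, and for 4 members on the lower side, against 17.5% of all genes. An unadjusted p under 0.05 was reached by 17 members, all higher, against 11.3% of all genes on that side. The number called depended on the saline libraries, which enter this fit through the filter on low counts, the scaling factors and the shared estimate of the spread. Without saline replicate 2, or with the saline libraries left out of the fit, the same 17 members were called. Higher were Acta1, Actc1, Lmod2, Tmod1, Capzb, Myom1, Actn2, Myoz2, Flnc, Mypn, Fhl1, Xirp2, Smpx, Murc, Smyd1 and Bag3, which makes 16, and Tpm2 was lower. The background was then 6.16% of all genes higher and 3.27% lower without saline replicate 2, and 7.12% and 4.74% without any saline library. DESeq2 called 11 members higher and 0 lower (7.63% and 5.52% of the genes to which it gave an adjusted p). Leaving out saline replicate 1, or any 1 of the 6 Ang II and Ang II + NaBu libraries, left 0 members called. Almost no gene of the whole table was called there either (0.0633% rose and 0.215% fell without saline replicate 1, and 1 to 3 genes rose and 0 to 2 fell without each of the 6), so these counts say nothing about the members in particular. In those fits the members' median stayed between 0.32 and 0.42.

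Ang II + NaBu against saline shares its NaBu libraries with the comparison above. Smpx and Smyd1 rose and 0 members fell, where 3.01% of all genes rose and 2.05% fell. The median log2 difference was 0.28 for the members and -0.05 for all genes, and 27 of 33 averaged higher. Groups did not overlap for 14 members on the higher side (42.4%, against 14.5% of all genes) and for 2 on the lower side (against 14.1%). Without saline replicate 2 the median was 0.18 and 23 members averaged higher, and Smpx and Smyd1 were again the 2 called (1.86% of all genes rose and 0.897% fell). DESeq2 called 12 members higher and 2, Tpm2 and Actn1, lower (9.45% and 5.76% of its genes), while edgeR with these 2 groups alone called 0 members (0.0331% and 0.0265% of all genes). In 13 of 33 members (39.4%) all NaBu libraries lay above all 6 others, which held for 10.8% of all genes. Tpm2 and Actn1 lay below all 6 others, which held for 8.33% of all genes.

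**Figure D1:**
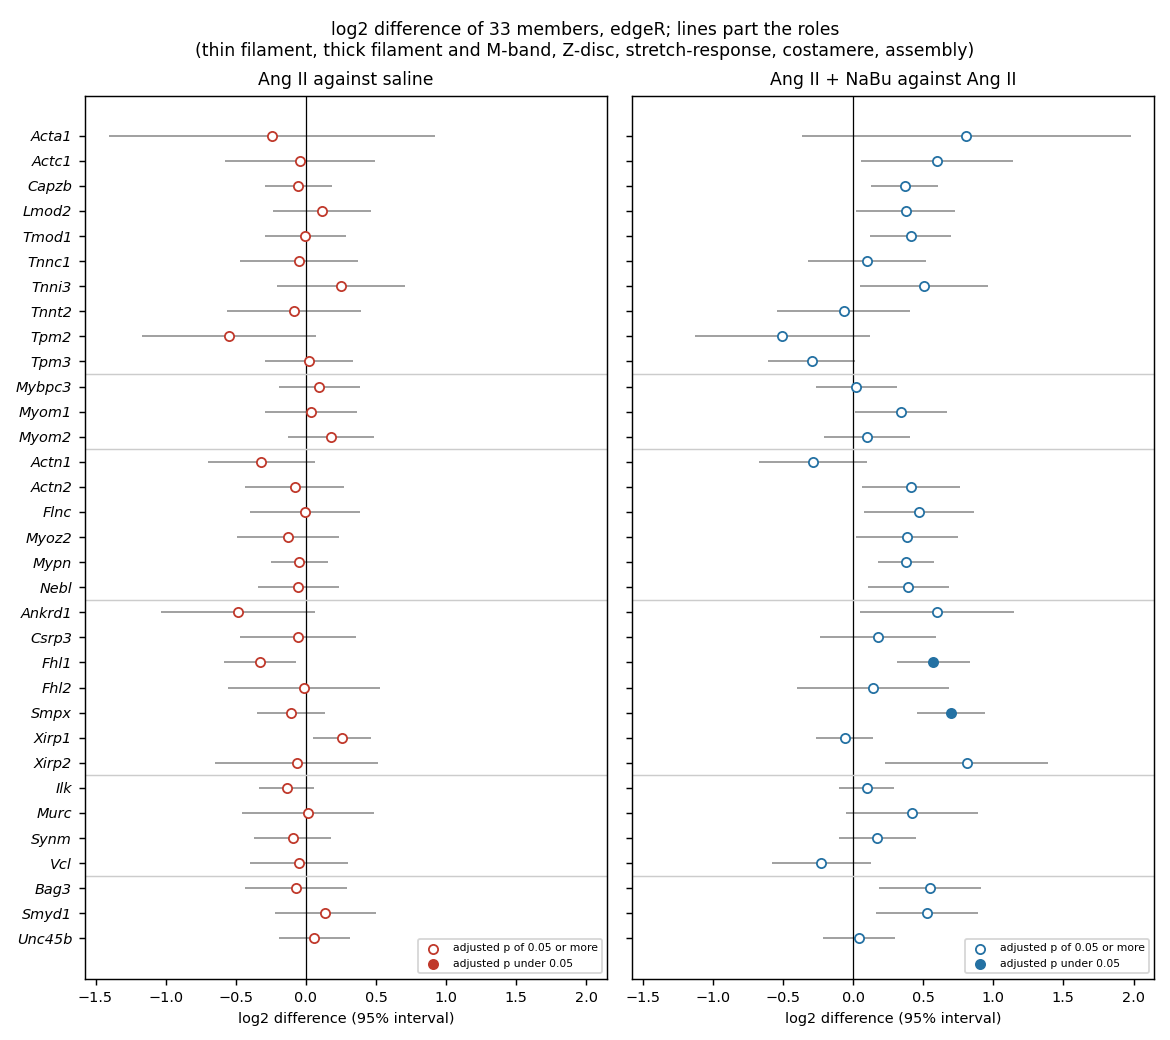
Log2 difference of each of the 33 members for Ang II against saline (left) and for Ang II + NaBu against Ang II (right), with 95% intervals from edgeR; filled points have an adjusted p under 0.05 and grey lines part the 6 roles. On the left the points lie on both sides of 0 and none is filled, and on the right 27 points lie above 0 and Smpx and Fhl1 are filled.

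The stretch-response group holds 7 measured members, of which 2 rose with NaBu against Ang II. Smpx encodes a small muscle protein of the costamere region that is known for being induced by stretch. It was at 139.6, 161 and 135 CPM in saline replicates 1, 2 and 3, at 124, 135 and 146 CPM in Ang II replicates 1, 2 and 3, and at 227, 199 and 230.0 CPM in NaBu replicates 2, 4 and 6. Every NaBu library lay above every other library, and saline replicate 2, low for most members, was the highest of the saline libraries here. Smpx rose 1.62-fold over Ang II (log2 0.70, SE 0.11, edgeR adjusted p = 0.037) and 1.51-fold over saline (log2 0.59, SE 0.11, adjusted p = 0.024). Leaving out any 1 NaBu library, any 1 Ang II library or saline replicate 1 took the first call away, with log2 differences from 0.65 to 0.78 and adjusted p-values from 0.0528 to 0.184. So did scaling to total counts (adjusted p = 0.0915). The call against saline was lost without saline replicate 1 (adjusted p = 0.054) and without NaBu replicate 2, 4 or 6 (0.0853, 0.0535 and 0.12), and lay between 0.0214 and 0.0452 without each of the other 5 libraries. It was also lost with scaling to total counts (adjusted p = 0.0855), with these 2 groups alone in the fit (0.0712) and without saline replicates 2 and 3 together (0.063).

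Fhl1 encodes a LIM domain protein of the sarcomere that in mice takes part in sensing load through titin. Its levels were 209, 179 and 219 CPM with saline, 144, 168 and 172 CPM with Ang II and 219, 259 and 241 CPM with NaBu. The Ang II libraries were the lowest of the 9, and NaBu replicate 2 was level with saline replicate 3. Against Ang II, Fhl1 rose 1.49-fold with NaBu (log2 difference 0.57, SE 0.117, edgeR adjusted p = 0.046). Its difference between Ang II and saline was -0.33 (95% interval -0.59 to -0.07), which did not pass the test (edgeR adjusted p = 0.74), and against saline NaBu gave 0.24 (adjusted p = 0.23). Without saline replicate 1, or without any 1 of the Ang II or NaBu libraries, the rise over Ang II was 0.51 to 0.64 and its adjusted p 0.0624 to 0.202, and with scaling to total counts it was 0.47 (adjusted p = 0.0848).

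Xirp2 encodes a Xin-repeat protein that binds actin at the intercalated disc. It was at 1506, 817 and 2126 CPM with saline, at 1411, 1404 and 1439 CPM with Ang II and at 2527, 2546 and 2381 CPM with NaBu. All NaBu libraries were above the other 6, while the saline libraries spread widely on both sides of the Ang II ones. The log2 difference to Ang II was 0.81 (SE 0.263, 95% interval 0.22 to 1.39, edgeR adjusted p = 0.12), so the test across all genes did not call it. Ankrd1, the cardiac ankyrin repeat protein that binds titin and moves to the nucleus, was at 1783, 1189.8 and 2211 CPM with saline, at 874, 1331 and 1506 CPM with Ang II and at 1586, 1889 and 2146 CPM with NaBu. NaBu lay above Ang II in every library, by 0.60 (SE 0.248, edgeR adjusted p = 0.19), and both NaBu and Ang II overlapped saline.

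The other 3 measured members of this group moved less. Xirp1, a relative of Xirp2 at the intercalated disc, was at 218, 221 and 244 CPM with saline, at 254, 283 and 279 CPM with Ang II and at 264, 263 and 256 CPM with NaBu. It was the only member whose Ang II libraries all lay above the saline ones (log2 difference 0.26, 95% interval 0.05 to 0.46, edgeR adjusted p = 0.74), and its level with NaBu overlapped that with Ang II. Fhl2, a LIM protein that also serves as a transcriptional cofactor, averaged 851 ± 328, 844 ± 15.7 and 933 ± 64.1 CPM with saline, Ang II and NaBu (SD, n = 3 each). Csrp3, the muscle LIM protein of the Z-disc, averaged 413 ± 94.9, 397 ± 73.7 and 449 ± 38.2 CPM. Their log2 differences between NaBu and Ang II were 0.14 (95% interval -0.40 to 0.69) and 0.18 (-0.24 to 0.59). Ankrd2, a relative of Ankrd1 known mainly from skeletal muscle, is listed at 0 in all 9 libraries.

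**Figure D2:**
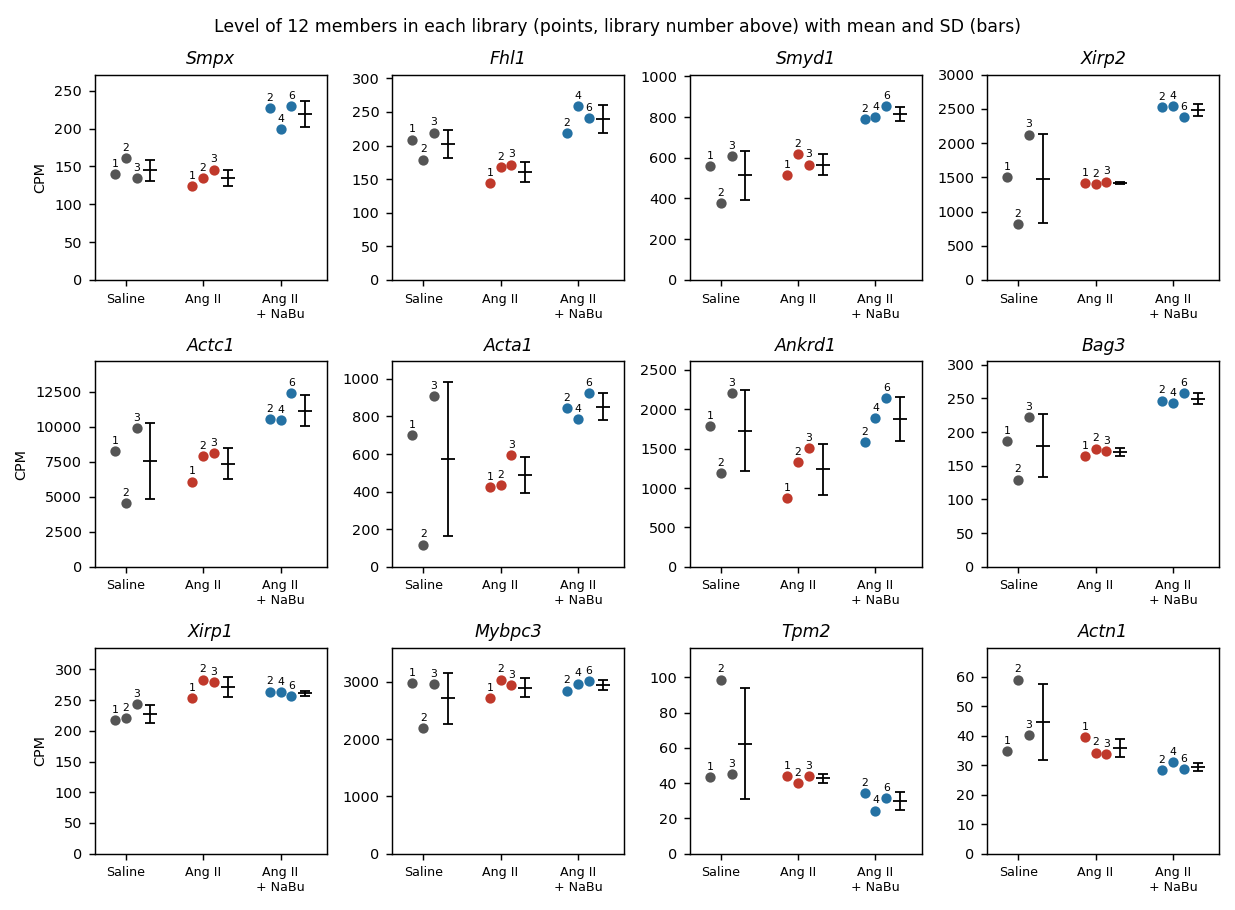
Level of 12 members in each library, in CPM on a linear axis from 0; each point is 1 library with its number, and the bar beside a group gives its mean and SD (n = 3). For Smpx, Smyd1, Xirp2, Actc1 and Bag3 all NaBu points lie above all others, and for Tpm2 and Actn1 all lie below. Saline replicate 2 is the lowest point for Smyd1, Xirp2, Actc1, Acta1, Bag3 and Mybpc3.

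The promoters of the 3 called genes, Smpx, Fhl1 and Smyd1, and of Xirp2, whose difference to Ang II was as large as that of any member, are shown because serum response factor and MEF2, whose binding motifs are the CArG box and the MEF2 site, are known regulators of sarcomere genes. The windows are the 250 bases before the annotated start in RefSeq (build GRCr8), read 5′ to 3′ on the strand of the gene, and capitals mark a match to 1 of these motifs. Fhl1 lies on chrX:139638246-139638495 (plus strand, its first start), Smpx on chrX:41107138-41107387 (minus strand), Xirp2 on chr3:72533936-72534185 (plus strand) and Smyd1 on chr4:104811273-104811522 (minus strand).
Fhl1: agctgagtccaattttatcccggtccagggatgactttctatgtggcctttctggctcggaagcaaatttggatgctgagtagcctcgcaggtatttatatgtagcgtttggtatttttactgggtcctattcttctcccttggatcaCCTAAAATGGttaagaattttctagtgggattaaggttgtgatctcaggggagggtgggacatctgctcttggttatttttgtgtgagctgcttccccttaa
Smpx: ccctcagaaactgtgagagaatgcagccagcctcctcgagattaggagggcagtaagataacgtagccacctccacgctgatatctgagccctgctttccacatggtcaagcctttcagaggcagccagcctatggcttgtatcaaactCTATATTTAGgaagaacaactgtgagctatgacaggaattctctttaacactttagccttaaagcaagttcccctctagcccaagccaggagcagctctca
Xirp2: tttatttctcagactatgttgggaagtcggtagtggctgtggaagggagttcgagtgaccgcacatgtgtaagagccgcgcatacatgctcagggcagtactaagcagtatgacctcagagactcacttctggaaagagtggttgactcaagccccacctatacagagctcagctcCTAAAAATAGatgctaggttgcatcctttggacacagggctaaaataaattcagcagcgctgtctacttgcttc
Smyd1: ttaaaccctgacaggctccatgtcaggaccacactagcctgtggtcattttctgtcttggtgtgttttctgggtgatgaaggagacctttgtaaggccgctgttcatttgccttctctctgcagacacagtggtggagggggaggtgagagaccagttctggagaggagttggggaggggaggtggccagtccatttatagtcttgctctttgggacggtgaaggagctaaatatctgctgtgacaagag

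The Fhl1 window held a CArG box from base -102 to -93 before the start, the Smpx window a MEF2 site from -101 to -92 and the Xirp2 window a MEF2 site from -74 to -65. The second Fhl1 window and the Smyd1 window held neither. Of the 33 members, 29 had a window, 36 windows in all, with Murc matched under its current symbol Cavin4. A CArG box was in 5 of the 36 windows, which belong to 4 genes (Acta1, Fhl1, Fhl2, Nebl), and in 1.5% of all 33469 windows. A MEF2 site was in 7 of the 36 windows, of 6 genes (Fhl2, Mybpc3, Myoz2, Smpx, Xirp1, Xirp2), and in 2.96% of all windows. The muscle CAT motif, CATTCC, was in 6 of the 36 (12.1% of all windows) and TATAAA in 2 (8.06%). The CArG box, the MEF2 site and CATTCC were searched on both strands and TATAAA on the strand of the gene only. A match is a description of letters and not evidence of binding.

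The thin filament group holds 10 measured members. None was called by edgeR for NaBu against Ang II, 5 were higher at an unadjusted p under 0.05 and DESeq2 called Tmod1 and Capzb as higher. The group's median log2 difference was 0.37. Actc1, cardiac alpha-actin, was at 8290.5, 4578 and 9894 CPM with saline, at 6086, 7901 and 8128 CPM with Ang II and at 10565, 10465 and 12444 CPM with NaBu. Its NaBu libraries lay above all 6 others, 1.51-fold above Ang II (log2 difference 0.60, SE 0.243, edgeR adjusted p = 0.19). Acta1, skeletal alpha-actin, which the fetal and the loaded heart are known to express more, was at 699.9, 118 and 908 CPM with saline, at 425, 436 and 596 CPM with Ang II and at 843, 784 and 926 CPM with NaBu. The NaBu libraries lay above Ang II and overlapped saline, where replicate 2 was the lowest of all 9 and replicate 3 the second highest. The log2 difference to Ang II was 0.81 with a wide 95% interval of -0.36 to 1.98 (edgeR adjusted p = 0.4), and between Ang II and saline it was -0.24 (-1.41 to 0.92).

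The share of Acta1 in the sum of both actins was also set out, because it does not depend on the scaling between libraries. Reads of these near-identical actins could have been split by the counting, which the share does not correct for. The share was 7.79%, 2.51% and 8.40% in the saline libraries, 6.53%, 5.23% and 6.83% with Ang II and 7.39%, 6.97% and 6.93% with NaBu. NaBu libraries lay above the Ang II ones by 0.897 percentage points on average (exact permutation test, two-sided p = 0.1, the smallest that 3 against 3 allows). Neither comparison with saline passed the exact permutation test (p = 1 for both), in which saline replicate 2, at 2.51%, weighs on every split. Saline replicates 1 and 3 lay above all Ang II and NaBu libraries. Without saline replicate 2 the NaBu share was 0.998 percentage points lower than saline rather than 0.864 higher.

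The troponins did not move together. Tnni3, cardiac troponin I, the inhibitory subunit, was at 3069, 2266 and 3706 CPM with saline, at 3975, 3436 and 3336 CPM with Ang II and at 6429, 4073 and 4733 CPM with NaBu. All NaBu libraries were above all others, replicate 2 by far the most, and the log2 difference to Ang II was 0.50 (SE 0.205, edgeR adjusted p = 0.19). Tnnt2, cardiac troponin T, which ties the complex to tropomyosin, was at 5603, 4135 and 7441 CPM with saline, at 6193, 5053 and 4948 CPM with Ang II and at 6315, 4343 and 4791 CPM with NaBu, with overlap in each comparison (log2 difference to Ang II -0.07, 95% interval -0.54 to 0.41). Tnnc1, the calcium-binding subunit, gave 0.10 (-0.32 to 0.52). Tnni1, the slow skeletal troponin I that the fetal heart uses, had between 0 and 54 counts a library and was under the level required. Its share of Tnni1 and Tnni3 was 0.041 ± 0.0265%, 0.0063 ± 0.00734% and 0.0156 ± 0.00875% with saline, Ang II and NaBu (SD, n = 3; exact permutation p = 0.2 for each step and 0.3 between the first and the last).

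The tropomyosins of the list went the other way from most members. Tpm2, beta-tropomyosin, was at 43.2, 98.7 and 45.3 CPM with saline, at 43.8, 40.01 and 44.1 CPM with Ang II and at 34.3, 24.4 and 31.6 CPM with NaBu. All NaBu libraries lay below all others, and saline replicate 2 was far above its group mates. The log2 difference was -0.50 against Ang II (SE 0.28, edgeR adjusted p = 0.32) and -1.05 against saline (SE 0.282, adjusted p = 0.058). With 1 library left out, the difference to saline ranged from -1.26 to -0.54. With the saline libraries left out of the fit Tpm2 was called as lower with NaBu than with Ang II. Tpm3 had means of 48.0 ± 5.97 and 39.1 ± 6.5 CPM in the Ang II and NaBu groups (log2 difference -0.30, edgeR adjusted p = 0.25). By contrast Tpm1, the main tropomyosin of the heart and no member of the list, averaged 3117 ± 63.8 and 4559 ± 532 CPM (0.55, adjusted p = 0.15). Beside Tpm2, 8 of 9 smooth muscle markers averaged lower with NaBu than with Ang II (median -0.23), all but Des, which heart muscle cells also express, and 7 of the 9 were highest in saline replicate 2. Their summed level was 2018 to 2490 CPM with saline, 1890 to 2260 CPM with Ang II and 2728 to 3034 CPM with NaBu, most of it Des, and their part in the Tpm2 difference was not tested.

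The genes for the filament ends differed by like amounts. Tmod1, which caps the pointed end, was at 198, 219 and 239 CPM with Ang II and at 294, 276 and 303 CPM with NaBu. Lmod2, which lengthens the filament at the same end, had a mean of 172 ± 10.3 and 222 ± 20.6 CPM, and Capzb, a subunit of the barbed-end cap at the Z-disc, of 147 ± 5.03 and 189 ± 13.7 CPM (SD, n = 3). In each of them all NaBu libraries lay above all 6 others. Their log2 differences to Ang II were 0.41, 0.37 and 0.37, with edgeR adjusted p-values of 0.11, 0.2 and 0.095.

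Of the 6 measured Z-disc members, 5 averaged higher with NaBu than with Ang II without overlap and Actn1 averaged lower without overlap. None was called by edgeR, 5 had an unadjusted p under 0.05 and DESeq2 called Actn2, Nebl, Flnc and Mypn. Actn2, sarcomeric alpha-actinin, the crosslinker of the Z-disc, was at 1755, 1332 and 2102 CPM with saline, at 1511, 1705 and 1693 CPM with Ang II and at 2246, 1969 and 2315 CPM with NaBu (log2 difference to Ang II 0.41, SE 0.158, edgeR adjusted p = 0.17). Saline replicate 3 reached the NaBu range, so only the comparison with Ang II was free of overlap. Flnc, filamin C, which links the Z-disc to the membrane, was at 983, 646 and 1050.2 CPM with saline, at 762, 959 and 951 CPM with Ang II and at 1136, 1279.9 and 1288 CPM with NaBu (0.47, SE 0.177, edgeR adjusted p = 0.16). Mypn, myopalladin, a binding partner of nebulin-type proteins and alpha-actinin, had the smallest SE of these 5 and an adjusted p of 0.065 for its log2 difference of 0.38. Nebl (nebulette) and Myoz2 (calsarcin 1, which binds calcineurin) gave 0.39 and 0.38.

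Actn1, an alpha-actinin known from non-muscle cells, was at 34.7, 59.0 and 40.1 CPM with saline, at 39.5, 34.2 and 33.7 CPM with Ang II and at 28.4, 31.0 and 28.7 CPM with NaBu. Every NaBu library lay below every other, with a log2 difference of -0.29 to Ang II (SE 0.173, edgeR adjusted p = 0.36) and of -0.60 to saline (SE 0.173, adjusted p = 0.069). Saline replicate 2 was the highest of the 9 libraries, as for Tpm2. With 1 library left out, the difference to saline ranged from -0.75 to -0.33. Tcap (telethonin, the cap of titin at the Z-disc) had from 0 to 35 counts a library and Myot (myotilin) from 0 to 64, with Myot at 0 in 6 of the 9. Both were under the level required, although Tcap is known as an abundant heart transcript, and the reason was not tested.

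The 3 thick filament and M-band members averaged higher with NaBu than with Ang II, with none called by edgeR or DESeq2 and 1 at an unadjusted p under 0.05. Myom1, a myomesin that crosslinks thick filaments, averaged 1027 ± 66.4 and 1303 ± 67.6 CPM (log2 difference 0.34, edgeR adjusted p = 0.21), with all NaBu libraries above the other 6. Myom2 did so too but by only 0.10. Mybpc3, cardiac myosin-binding protein C, was at 2983, 2191 and 2957 CPM with saline, at 2711, 3039.9 and 2943 CPM with Ang II and at 2847, 2971 and 3013 CPM with NaBu. Its NaBu difference of 0.02 (95% interval -0.27 to 0.31) reversed in sign under 4 of the alternatives tried.

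Of the 4 costamere and intermediate filament members none was called in any comparison by edgeR with all 9 libraries in the fit, none had an unadjusted p under 0.05, and DESeq2 called none. Vcl, vinculin, which couples actin to integrins and cadherins, was at 503, 602 and 463 CPM with saline, at 497, 527 and 492 CPM with Ang II and at 479.8, 329.8 and 487 CPM with NaBu. NaBu replicate 4 was the lowest library by a wide margin, and the log2 difference to Ang II was -0.23 (SE 0.158, edgeR adjusted p = 0.43). Murc, a caveola protein of muscle, averaged 96.8 ± 4.08 and 129.5 ± 15.6 CPM with Ang II and NaBu (0.42, adjusted p = 0.27). Ilk, the integrin-linked kinase, and Synm, the intermediate filament protein synemin, differed by 0.10 and 0.17.

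Among the 3 assembly members, Smyd1 rose against saline. Smyd1, a muscle-restricted methyltransferase that works with myosin chaperones, was at 558, 377 and 607 CPM with saline, at 513, 617 and 567 CPM with Ang II and at 791, 800.4 and 855 CPM with NaBu. Every NaBu library lay above all 6 others, and the increase was 1.59-fold over saline (log2 difference 0.67, SE 0.164, edgeR adjusted p = 0.046) and 1.44-fold over Ang II, which was not called (0.53, adjusted p = 0.11). Leaving out saline replicate 2 (0.50, adjusted p = 0.0388) or 3 (0.80, adjusted p = 0.0282) kept the call against saline. It was lost without each of the other 7 libraries, with adjusted p-values from 0.062 to 0.17, and also with upper-quartile scaling (0.0519), with these 2 groups alone in the fit (0.116) and without saline replicates 2 and 3 together (0.0758). Bag3, the co-chaperone that clears damaged filamin, was at 186, 129.5 and 223 CPM with saline, at 164, 175 and 172 CPM with Ang II and at 246, 243 and 258 CPM with NaBu. The NaBu libraries again lay above all others, by 0.55 over Ang II (SE 0.164, edgeR adjusted p = 0.099). Unc45b, the myosin chaperone, differed by 0.04 (95% interval -0.21 to 0.30).

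**Figure D3:**
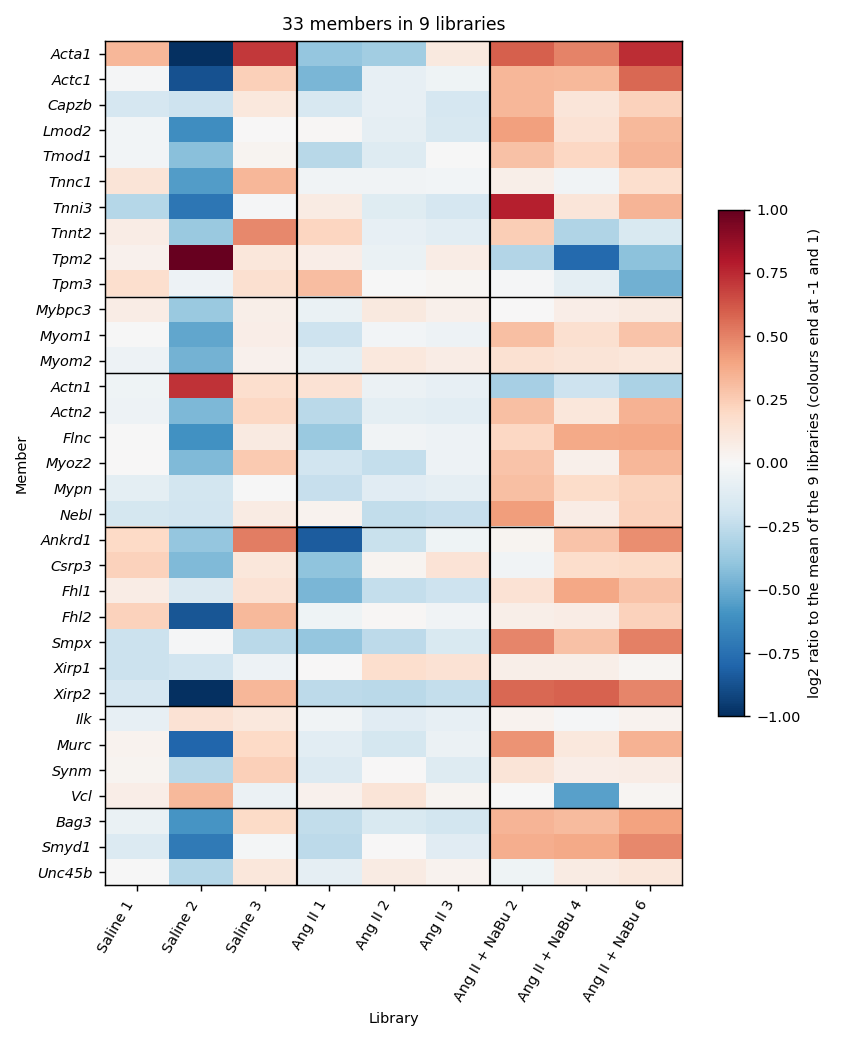
Log2 ratio of each member in each library to the mean of the 9 libraries, with colours ending at -1 and 1, libraries in columns and members in rows parted by role. The NaBu columns are mostly above 0, saline replicate 2 is below 0 for most members, and Tpm2 and Actn1 are above 0 in saline replicate 2 and below 0 in every NaBu column.

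The markers of the heart muscle cell moved with the members. All 10 ventricular cardiomyocyte markers averaged higher with NaBu than with Ang II, by a median of 0.38 on the log2 scale, and their summed level was 62864 to 67465 CPM with Ang II, 72519 to 78607 CPM with NaBu and 49077 to 76478 CPM with saline. Ckm, the muscle creatine kinase, gave the largest difference (0.68, edgeR adjusted p = 0.095). All 8 endothelial markers averaged lower (median -0.24), and Egfl7, a secreted endothelial protein, fell (-0.61, edgeR adjusted p = 0.03), a call lost without any 1 Ang II or NaBu library (adjusted p up to 0.159). The endothelial sum was 1444 to 1811 CPM with saline, 1502 to 1731 CPM with Ang II and 1269 to 1479 CPM with NaBu. Fibroblast markers had a median of 0.16, with 7 of 11 higher and a sum of 2869 to 4734 CPM with saline, 2794 to 2966 CPM with Ang II and 2795 to 3492 CPM with NaBu. All 7 erythroid markers, globins among them, averaged lower with NaBu than with Ang II (median -0.47) and higher with Ang II than with saline (median 0.70, 4 of them without overlap). Their sum was 1754 to 2581 CPM with saline, 2385 to 4205 CPM with Ang II and 2127 to 2712 CPM with NaBu. For NaBu against Ang II, 4 of 8 macrophage markers (median 0.05), 7 of 10 atrial markers (0.45) and 3 of 6 tested skeletal muscle markers (-0.26) averaged higher. The part of these cell types in the members' differences was not tested. None of the ventricular, endothelial, fibroblast and erythroid lists had a defining marker at 0 in all libraries. When the libraries were instead scaled so that the 10 ventricular markers were level on average, a choice made after the data were seen, 0 members were called in any comparison. Nearly all other calls were lost too, with 0.00647% of all genes rising and 0% falling for NaBu against Ang II. The members' median for NaBu against Ang II was then 0.02, with 18 of 33 higher, while the median of all genes was -0.37. Under that scaling Xirp2 differed by 0.46, Smpx by 0.35 and Fhl1 by 0.23 (edgeR adjusted p = 0.25, 0.48 and 0.53). Against saline the members' median was -0.16 under it, with 10 of 33 higher, while the median of all genes was -0.55.

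**Figure D4:**
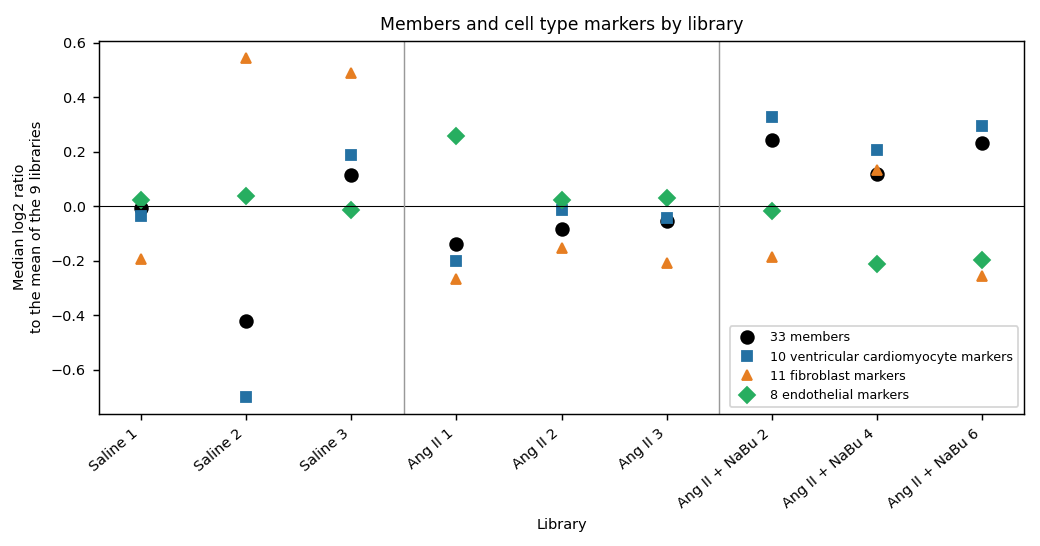
Median log2 ratio to the mean of the 9 libraries, by library, for the 33 members (black circles), 10 ventricular cardiomyocyte markers (blue squares), 11 fibroblast markers (orange triangles) and 8 endothelial markers (green diamonds). The members' medians are -0.42 in saline replicate 2 and 0.12 to 0.24 in the NaBu libraries, and the ventricular markers are low and high in the same libraries.

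Other genes of the same structures were described from lists that are not part of the 37. Of 51 further tested genes of the thin filament, Z-disc and M-band, 3 rose with NaBu against Ang II, 34 averaged higher and the median was 0.14, where 0.647% of all genes rose and 47.3% averaged higher. The 3 were Klhl41 (0.65, edgeR adjusted p = 0.043), a stabiliser of thin filament proteins, Cmya5 (0.63, adjusted p = 0.045), a large muscle protein of the costamere, and Cap2 (0.53, adjusted p = 0.049), an actin-cycling protein. Against saline, Des (0.65, adjusted p = 0.043), the intermediate filament protein desmin that surrounds the Z-disc, rose together with Klhl41 and Cap2, and Tnnt3, fast skeletal troponin T, fell (-1.16, adjusted p = 0.042). Of 30 further costamere genes, Sgcb, a sarcoglycan of the dystrophin complex, rose against Ang II (0.51, adjusted p = 0.049) and against saline (0.48, adjusted p = 0.036), and Pxn, the focal adhesion adaptor paxillin, fell against saline (-0.39, adjusted p = 0.038). Over all genes, 3.01% rose and 2.05% fell against saline. The 1 of 30 that rose, the 1 of 30 that fell and the 1 of 51 that fell (Tnnt3) are near these shares. Against Ang II 16 of the 30 averaged higher, near the share of all genes. Of 19 further chaperones 16 averaged higher than with Ang II, with a median of 0.27, and Hspa8 rose against saline (0.50, adjusted p = 0.032). Of 17 tested mechanosensitive transcription factors and their targets, Nppb, the natriuretic peptide B gene, rose against Ang II (0.70, adjusted p = 0.047), while 7 averaged higher, again near the share of all genes, and the median was -0.09. The 5 calls against Ang II (Klhl41, Cmya5, Cap2, Sgcb and Nppb) were each lost without saline replicate 1 or any 1 Ang II or NaBu library, with adjusted p-values up to 0.215. Those against saline (Des, Klhl41, Cap2, Tnnt3, Sgcb, Pxn and Hspa8) were each lost without saline replicate 1 or any 1 NaBu library, up to 0.176.

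Of the 33 members, 21 were listed with several transcripts, and 16 had at least 2 transcripts that took a mean of 5% or more of the gene's counts. How reads shared between transcripts were assigned is not given in the sources used here. In Mybpc3, Fhl1 and Tpm3 a transcript's share moved by over 50 percentage points within a group. For Fhl1, the transcript NM_001033926.2 took 73.7% and 83.1% in Ang II replicates 1 and 3 and 0% or nearly so in replicate 2, and 35.3% to 42.2% with saline. Gene sums were used for the tests from the start. Taking only the highest transcript of each gene left 0 members called. For NaBu against Ang II 0.013% of all genes then rose and 0.0195% fell.

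Of the 49 transcripts of these members with a mean share of at least 5%, 2 had all NaBu shares above all other libraries. In 3 all NaBu shares lay below. These were transcripts of Capzb, Fhl2, Tpm2 and Fhl1. The same count was not made over the transcripts of all genes. For Capzb, XM_006239177.3 took 35.1%, 39.4% and 40.6% of the gene's counts with saline, 38.3%, 41.4% and 39.2% with Ang II and 56.5%, 48.6% and 50.9% with NaBu, and NM_001005903.1 went down in step. For Fhl2, XM_017596617.1 took 13.0%, 12.3% and 19.0% with saline, 9.9%, 23.6% and 24.9% with Ang II and 40.3%, 37.5% and 48.5% with NaBu. NM_031677.1 of Fhl2 was near 0 in all NaBu libraries and in Ang II replicates 2 and 3, and at 44.7% to 56.4% in the other 4 libraries. For Tpm2, NM_001024345.2 took 24.4% to 40.2% in the saline and Ang II libraries and 8.6% to 17.1% with NaBu. Myom2, whose summed level hardly differed, had NM_001169141.1 at 92.9% to 94.2% with saline, at 59.0%, 92.0% and 93.7% with Ang II and at 40.4%, 63.0% and 24.5% with NaBu. These shares are values of each library and were not tested.

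**Figure D5:**
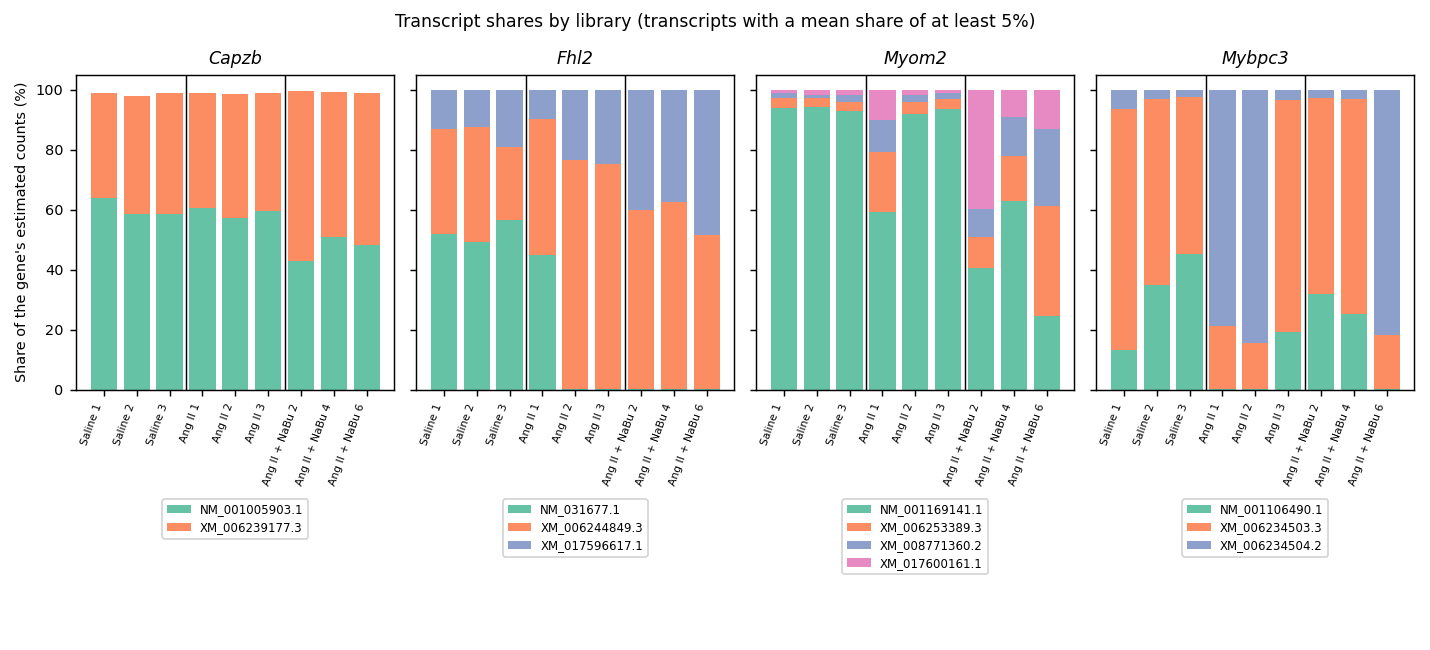
Share of each gene's estimated counts by transcript (RefSeq ID in the legend) in each of the 9 libraries, in percent, for transcripts with a mean share of at least 5%. The Capzb split shifts in all NaBu libraries, NM_031677.1 of Fhl2 is near 0 in 5 libraries, and the Mybpc3 split changes between libraries of 1 group.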

How the data were processed

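Per the labels, total RNA of the left ventricle was extracted with Trizol and made into libraries with a TruSeq kit. The submitters' processing notes name Bowtie 0.12.2 and the mouse build mm8, although the IDs in the files are RefSeq IDs of rat. The counting tool and any strand setting were not given in the sources used here. Each group's table, as deposited, lists estimated counts for every transcript, with a column for each of its libraries. The saline columns hold the same kind of whole numbers, and a stray line end in their last column was removed. The design text of the series describes a tendon experiment and was not used. NaBu columns carry the numbers 2, 4 and 6 and are named by them.

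The 55767 transcripts were summed to 22608 gene names. Counts were tested with edgeR 4.0.16 (R 4.3.3; quasi-likelihood test, TMM factors from 0.887 to 1.14, filterByExpr, prior count 0.125, all 3 groups in 1 fit), with Benjamini-Hochberg adjustment over 15467 genes and a threshold of 0.05; DESeq2 1.42.0 was an alternative. "Rose" and "fell" mean called by edgeR. The common biological coefficient of variation was 0.256. Scripts were tested on simulated data. Named members are those called, the 4 largest differences without overlap in each direction of each comparison and a set chosen for their roles; others are given by level or count. The members and the gene lists were chosen with earlier results of these data known. Promoters are from RefSeq (GRCr8).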

Additional observations from a re-analysis of the deposited data

How the results depend on the processing

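For Ang II against saline, 0 members rose and 0 fell under all 20 alternatives. The labels do not say that the replicate numbers of these 2 groups pair the libraries, and no sign of pairing was seen. Deviations of same-numbered libraries correlated at -0.00, -0.03 and 0.01, and those of the other pairs at -0.03 to 0.03. With 3 libraries in each group, these values cannot settle whether the libraries were paired. With the replicate block 0 members were called and the median was -0.00. No block could be fitted for NaBu, whose columns share only the number 2 with the other groups.

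For NaBu against Ang II, 2 members rose in the reported fit. The count was 0 with total count scaling, with the highest transcript per gene and with scaling to ventricular markers (added after the data were seen). These settings called 1 to 2 genes as higher and 0 to 3 as lower in the whole table. The count was 11 with DESeq2, and 16 higher with 1 lower when only the 2 groups were compared (7.12% of all genes higher and 4.74% lower). Without saline replicates 2 and 3 together, which leaves 1 saline library, the members' median was 0.38. Leaving out 1 library gave 0 to 16 higher and 0 to 1 lower. The median of 0.37 became 0.26 with total count scaling and 0.02 with scaling to ventricular markers, and ranged from 0.32 to 0.42 when 1 library was left out. For NaBu against saline, 2 rose in the reported fit (Smpx and Smyd1). With total count scaling 2 rose (Tnni3, edgeR adjusted p = 0.0437, and Smyd1, while Smpx was lost at 0.0855), where 1.86% of all genes rose. Upper-quartile scaling called 1 (2.48% of all genes rose), and DESeq2 called 12 higher and 2 lower. The count was 0 when only the 2 groups were compared, with the highest transcript and with scaling to ventricular markers. These settings called 5, 16 and 1 genes higher in the whole table. Under the last the members' median was -0.16, against -0.55 for all genes. With values divided by 4, 2 members rose and 1 fell, where 4.2% of all genes rose and 2.59% fell. Without saline replicates 2 and 3 together the members' median was 0.26. Leaving out 1 library gave 0 to 7 higher, 0 to 2 lower and medians from 0.18 to 0.38. The 7 higher came without saline replicate 3, with 1 lower, where 4.86% of all genes rose and 3.38% fell. The 2 lower came without saline replicate 1, where 1.47% of all genes rose and 1.13% fell. The median of all genes for NaBu against Ang II moved to -0.13 with total count scaling and -0.37 with scaling to ventricular markers.

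The signs that turned belong to differences that passed no test. Between Ang II and saline, Flnc became 0.0015 with RLE scaling, 0.0014 with DESeq2 and 0.0034 with values divided by 4. With total count scaling, Actc1 became 0.054, Tnnt2 0.0056, Actn2 5.8e-05, Flnc 0.077, Fhl2 0.088, Csrp3 0.016, Xirp2 0.043 and Bag3 0.013. With the highest transcript, Tpm2 became 0.089, Mybpc3 -0.67, Fhl1 0.050, Fhl2 1.07 and Vcl 0.098. Without saline replicates 2 and 3, Mybpc3 became -0.042 and Vcl 0.0055. With the replicate block, Acta1 became 0.14, Actc1 0.014, Flnc 0.018, Fhl2 0.072 and Xirp2 0.038. Between NaBu and Ang II, Mybpc3 became -0.013 with upper-quartile scaling, -0.085 with total count scaling and -0.32 with scaling to ventricular markers, where Fhl2 became -0.21 and Csrp3 -0.16, and the highest transcript gave -0.058 for Fhl2 and -0.0022 percentage points for the Tnni1 share. Between NaBu and saline, the highest transcript gave -0.22 for Mybpc3 and 0.064 for Vcl, and leaving out saline replicates 2 and 3 gave -0.018 for Mybpc3, -0.11 for Fhl2 and -0.11 for Csrp3. Scaling to ventricular markers gave -0.32 for Mybpc3, -0.093 for Actn2, -0.28 for Ankrd1, -0.21 for Fhl1, -0.23 for Fhl2 and -0.30 for Csrp3. With 1 library left out, the ranges that cross 0 between Ang II and saline were -0.73 to 0.25 for Acta1, -0.30 to 0.20 for Actc1, -0.28 to 0.15 for Tnnt2, -0.039 to 0.17 for Mybpc3, -0.24 to 0.085 for Actn2, -0.19 to 0.13 for Flnc, -0.30 to 0.19 for Fhl2, -0.24 to 0.10 for Csrp3, -0.36 to 0.29 for Xirp2, -0.13 to 0.060 for Vcl, -0.26 to 0.11 for Bag3 and -1.89 to 1.05 percentage points for the Acta1 share. Between NaBu and Ang II they were -0.24 to 0.049 for Tnnt2 and -0.015 to 0.081 for Mybpc3. Between NaBu and saline they were -0.33 to 0.082 for Tnnt2, -0.077 to 0.34 for Ankrd1, -0.14 to 0.34 for Fhl2, -0.042 to 0.25 for Csrp3 and -0.998 to 1.95 percentage points for the Acta1 share. Unless the setting's own construction shows it, the cause of these turns was not tested.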
